A study of Mus musculus with 282 samples.

Results

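The genes described here are those of the major histocompatibility complex (MHC) class I and class II pathways of the mouse, as measured in the hypothalamus of strains of the Hybrid Mouse Diversity Panel. Members were chosen by gene name from a list of 8 (H2-K1, H2-D1, H2-T23, B2m, Cd74, H2-Aa, H2-Ab1 and H2-Eb1), and 7 of them were matched to gene rows among the 14079 genes of the expression table. Those 7 genes carried 21 of the 51024 transcripts. H2-T23 was not analysed here.

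All mice were males fed a high fat diet, which the study's methods describe as high in fat and sugar, and the entire hypothalamus of each gave 1 unstranded mRNA library. The table holds 282 mice, and the labels give a single strain for all but 1 of them. These come from 43 BXD, 18 AXB/BXA, 7 CXB and 6 BXH recombinant inbred strains and 25 classical inbred strains, 99 in all, with 3 mice in 85 strains, 2 in 12 strains and 1 in 2 strains. Strains of a recombinant inbred set carry different mixtures of the same pair of parental genomes, which are those of C57BL/6J and DBA/2J for BXD, of C57BL/6J and A/J for AXB/BXA and of C57BL/6J and C3H/HeJ for BXH. The CXB set descends from the ByJ substrains of C57BL/6 and BALB/c, which were not analysed here, and C57BL/6J and BALB/cJ stand in for them below. Mouse numbers below (OB) are those of the labels.

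The labels were checked by comparing each mouse with its labelled strain over the 200 genes with the largest share of variance between strains, a check that was added after the strain comparison had been run. The mean correlation with strain mates had a median of 0.94 over the 279 mice that have one, and 2 mice were closer to another strain. OB-678, labelled CXB-7/ByJ, had a mean r of -0.0032 with its strain mates and of 0.93 with its nearest other strain, so this library goes against its label. OB-585, labelled PL/J, had 0.58 and 0.60. Results that rest on OB-678 are given with and without it, and no other strain was assigned to it. The sum of gene FPKM was 322047 to 463433 in all mice but OB-547 (BXD-12/TyJ), which had 792801.

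Class I molecules pair a heavy chain, encoded by H2-K1 or H2-D1, with beta-2 microglobulin, encoded by B2m, and display peptides made inside the cell to CD8 T cells. Class II molecules pair an alpha with a beta chain (H2-Aa with H2-Ab1, or the Eb1 beta chain with its own alpha chain), are loaded with the help of the invariant chain Cd74, and display peptides from engulfed material to CD4 T cells. Nearly all nucleated cells can make class I, interferons raise it, and class II in the brain is mostly a product of microglia, macrophages and other immune cells. The H2 genes are among the most variable between mouse strains, and strains that inherited the same H2 region share a haplotype. The b haplotype of C57BL/6J is also the sequence of the reference genome, while C3H/HeJ, CBA/J and AKR/J carry k, DBA/2J and BALB/cJ carry d, and A/J carries k sequence at K and d sequence at D.

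The mm10 positions of the assembled loci were chr17:33996015-34000333 on the minus strand for H2-K1, chr17:34263209-34269418 on the plus strand for H2-Ab1, chr17:34282744-34287827 on the minus strand for H2-Aa, chr17:34305883-34316199 on the plus strand for H2-Eb1 and chr17:35262730-35267604 on the plus strand for H2-D1. B2m lay at chr2:122147686-122153083 on the plus strand. B2m and Cd74 thus lie outside the H2 region, and each of the 7 loci held 1 gene name.

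The promoters are shown as background. Whether promoter sequence has a part in how class I and class II genes moved together within strains, described further on, was not tested. Of the 7 members, 5 matched an entry of the RefSeq promoter table, and Cd74 and H2-Ab1 did not. Each line gives the 180 bases before the RefSeq transcription start (GRCm38.p6), 5′ to 3′ in the direction of the gene, and capitals mark matches on either strand to ATTGG (the Y box core, read as CCAAT on the other strand), TGACG (the core of a cAMP response element), GAANNGAAA (a short interferon response element), the full interferon response element and the palindromic NF-kappaB site.
H2-K1, chr17:34000348-34000527, minus strand: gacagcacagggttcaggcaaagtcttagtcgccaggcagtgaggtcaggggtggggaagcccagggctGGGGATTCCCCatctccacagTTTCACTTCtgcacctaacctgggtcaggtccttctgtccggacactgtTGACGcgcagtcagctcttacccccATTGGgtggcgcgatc
H2-D1, chr17:35262914-35263093, plus strand: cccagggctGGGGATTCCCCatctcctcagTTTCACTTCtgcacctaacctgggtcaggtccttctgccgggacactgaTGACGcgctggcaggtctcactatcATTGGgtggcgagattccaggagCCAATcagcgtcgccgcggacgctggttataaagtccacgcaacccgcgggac
B2m, chr2:122147507-122147686, plus strand: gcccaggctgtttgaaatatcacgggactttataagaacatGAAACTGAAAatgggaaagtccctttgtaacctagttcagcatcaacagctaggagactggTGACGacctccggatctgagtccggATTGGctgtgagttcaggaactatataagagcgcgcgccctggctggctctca
H2-Aa, chr17:34287824-34288003, minus strand: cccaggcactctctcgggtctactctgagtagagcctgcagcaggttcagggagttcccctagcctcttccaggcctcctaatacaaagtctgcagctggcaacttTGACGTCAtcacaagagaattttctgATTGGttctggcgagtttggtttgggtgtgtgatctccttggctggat
H2-Eb1, chr17:34305687-34305866, plus strand: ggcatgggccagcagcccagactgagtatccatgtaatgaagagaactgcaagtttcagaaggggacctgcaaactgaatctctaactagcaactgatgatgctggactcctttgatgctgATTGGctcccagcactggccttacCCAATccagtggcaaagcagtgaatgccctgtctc

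ATTGG stood in all 5 windows and in 27.5% of the 32851 RefSeq promoter windows of the same length. TGACG stood in 4 of the 5, all but H2-Eb1, against 14.8% of all windows, and in H2-Aa it occurred on both strands of the same 8 bases. The NF-kappaB letters stood in H2-K1 and H2-D1 and in 9 of all windows, or 0.0274%. Of the interferon response letters, the short form (4.42% of all windows) stood in H2-K1 and H2-D1, and the full form (2.01%) in B2m. These matches describe the reference sequence only. The H2-D1 window lay wholly inside the assembled locus, which begins at chr17:35262730, so its RefSeq start is not the assembled start.

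B2m was the most abundant member, with a mean of 70.1 ± 37.1 FPKM (SD, n = 282 mice), where FPKM is fragments per kilobase of transcript, scaled to the depth of the library, and so allows levels to be compared between genes per length. H2-D1 followed with 23.1 ± 13.8 FPKM and H2-K1 with 14.4 ± 13.9 FPKM. The class II side was lower. Cd74, at chr18:60803848-60812650 on the plus strand, averaged 4.96 ± 8.87 FPKM, H2-Aa 2.09 ± 3.68, H2-Ab1 1.57 ± 2.60 and H2-Eb1 1.45 ± 2.88. The 3 class I genes and Cd74 were above 1 FPKM in all 282 mice, whereas H2-Aa was above 1 in 70.6%, H2-Ab1 in 58.5% and H2-Eb1 in 141 of the 282 mice. The SDs of the class II genes exceed their means because of a few mice, so medians are also given, 3.26 FPKM for Cd74, 1.42 for H2-Aa, 1.18 for H2-Ab1 and 0.997 for H2-Eb1. In bulk tissue, fewer cells of a type and less RNA per cell cannot be told apart.

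The first question was how much of this variation lay between strains. It was tested on log2(FPKM + 1) with limma's moderated F test over the 99 strains, adjusted over all 14079 genes by the Benjamini-Hochberg method. All 7 members were called, where 75.4% of all genes were called, so that the count itself sets the members little apart. The share of variance between strains (intraclass correlation) was 0.855 for H2-D1, 0.733 for H2-K1 and 0.643 for B2m, against a median of 0.222 over all genes. H2-D1 ranked 259 among the 14079 genes. For the class II side it was 0.447 for Cd74, 0.432 for H2-Eb1, 0.384 for H2-Ab1 and 0.372 for H2-Aa. The largest adjusted p of the 7 was 9.09e-09, for H2-Aa.

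Within the strain sets the calls differed, though the difference between sets was not tested. Within BXD all 7 were called, where 64.5% of genes were. Within AXB/BXA only H2-K1 and Cd74 passed (22.5% of genes called), within CXB only H2-K1, H2-D1 and B2m (18% of genes called), within BXH only H2-K1, H2-D1 and H2-Eb1 (18.6% of genes called), and within the classical inbred strains all but H2-Aa (47.8% of genes called). H2-K1 was called in each of the 5 sets with all mice, but not within AXB/BXA without replicate 2 (adjusted p = 0.142) or within CXB without replicate 1 (adjusted p = 0.0533). H2-Eb1 within BXH lost its call whichever replicate was left out (adjusted p = 0.0721 to 0.457), and 6 members were called there without OB-1121 and 7 without OB-1121, OB-676 and OB-677, none of which is a BXH mouse. The CXB calls rested in part on CXB-7/ByJ. Without OB-676 and OB-677, which leaves OB-678 alone in that strain, the adjusted p of H2-D1 was 0.103, while H2-K1 and B2m remained past the threshold. Without OB-678 the same 3 genes were called in CXB, and the strain share within CXB was 0.917 for H2-K1, 0.876 for H2-D1 and 0.889 for B2m, against 0.487, 0.483 and 0.536 with it.

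**Figure D1:**
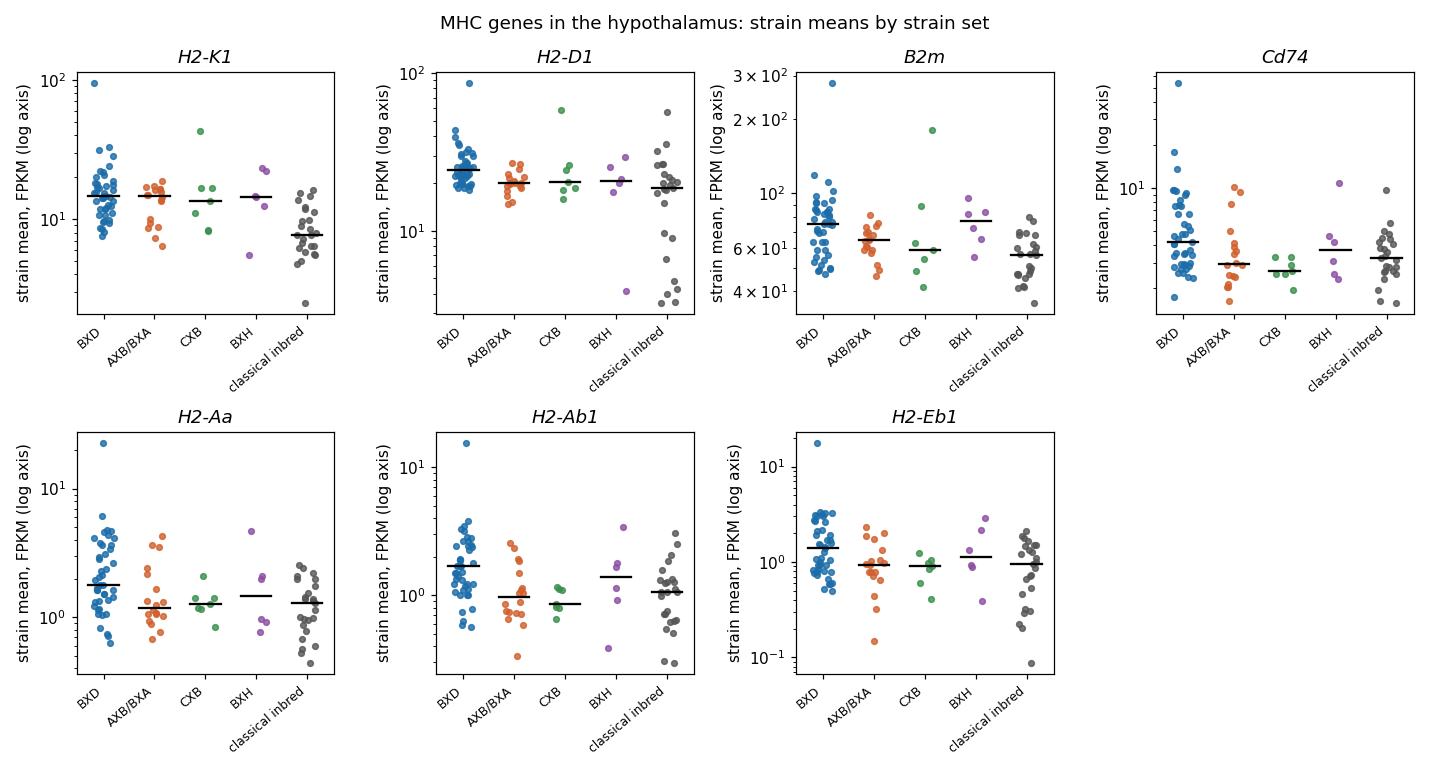
Strain means of the 7 genes in FPKM on log axes, 1 point per strain, by strain set, with the median of each set as a bar. H2-K1 has a median of 14.5 FPKM over BXD strains and 7.68 over classical inbred strains, and H2-D1 falls to about 4 FPKM in 1 BXH strain and in several inbred strains.

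The strain sets also differed in level. H2-K1 strain means had a median of 14.5 FPKM in BXD (7.56 to 95.1), 14.6 in AXB/BXA (6.38 to 18.9), 13.4 in CXB (8.27 to 43.1) and 14.5 in BXH (5.52 to 23.2), and of 7.68 in the classical inbred strains (2.51 to 16.1). The ranges overlapped. All 7 members were called for a set effect on strain means in limma (26.2% of genes called), with an adjusted p of 9.38e-05 for H2-K1. With only the 4 recombinant inbred sets in the fit, 2 of the 7 remained past the threshold, where 2059 of 14079 genes passed it. The adjusted p of H2-K1 was 0.734 in that fit. Without mice OB-1121, OB-676 and OB-677, Cd74 had an adjusted p of 0.0551.

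Among the classical inbred strains, H2-D1, a class I heavy chain, spanned the widest range of the class I genes, 16.1-fold from 3.51 ± 0.849 FPKM in CBA/J to 56.5 ± 8.25 FPKM in BUB/BnJ (SD, n = 3 each). The 3 mice of CBA/J had 2.61, 3.62 and 4.30 FPKM, and the 3 of BUB/BnJ 50.87, 52.61 and 65.96 FPKM. Means of CE/J (3.55), AKR/J (3.98), C3H/HeJ (4.27) and MA/MyJ (4.77) were next to CBA/J at the low end. SJL/J (6.59), RIIIS/J (8.96) and SM/J (9.74) came above these, and the next strain, A/J, was at 15.1 FPKM. SWR/J, at 35.8 FPKM, was second to BUB/BnJ. Of 24 pairs of neighbours in this order, 5 did not overlap in single mice, where 1.69% of such pairs did not over all genes, each gene in its own order: BUB/BnJ above SWR/J, DBA/2J above I/LnJ (1 mouse), A/J above SM/J, RIIIS/J above SJL/J, and SJL/J above MA/MyJ. The 3 mice of C57BL/6J, at 19.4, 20.4 and 20.6 FPKM, lay above every mouse of 9 strains and below every mouse of 5 (BUB/BnJ, SWR/J, DBA/2J, I/LnJ and SEA/GnJ).

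**Figure D2:**
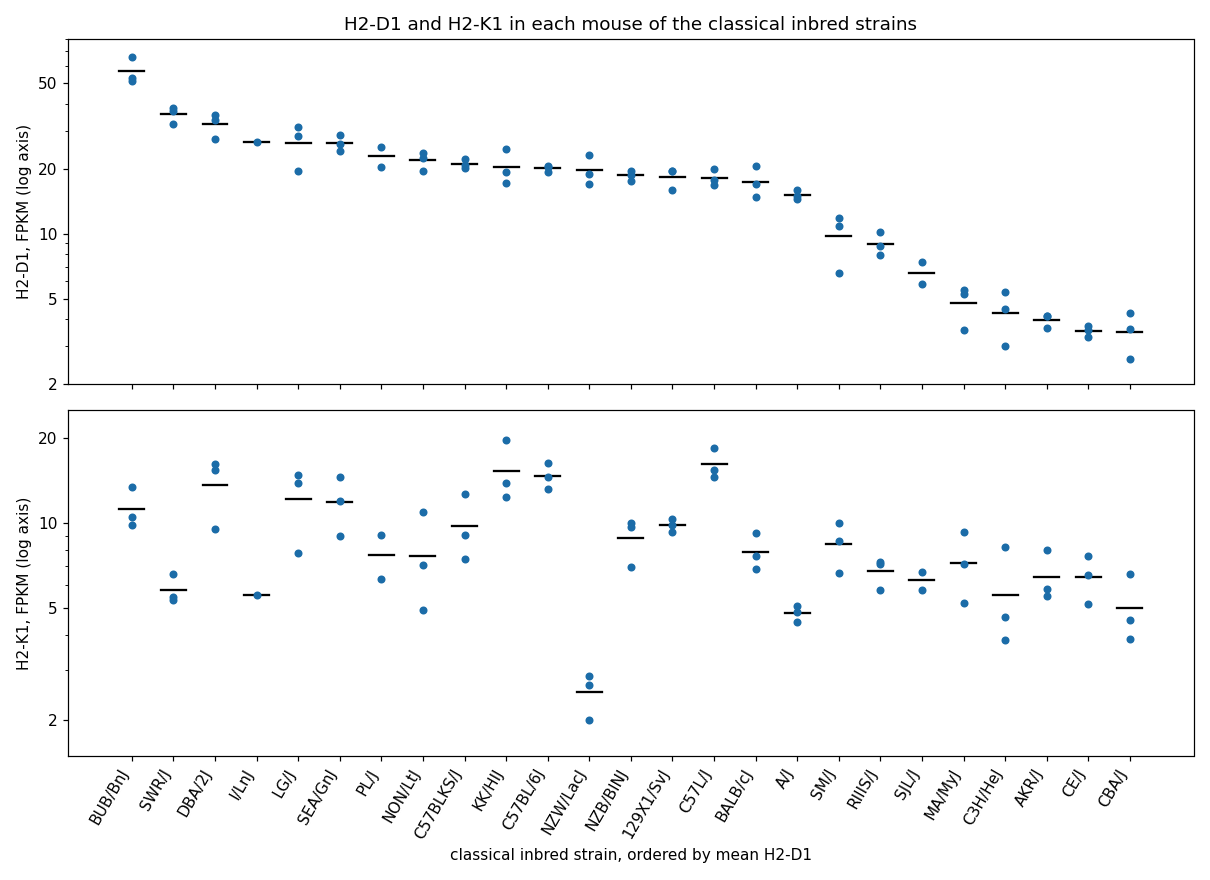
FPKM (log axes) of H2-D1, above, and H2-K1, below, in each mouse of the 25 classical inbred strains, ordered by mean H2-D1, with strain means as bars. CBA/J, CE/J, AKR/J, C3H/HeJ and MA/MyJ lie under 6 FPKM for H2-D1, and NZW/LacJ has the lowest H2-K1.

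H2-K1, the other class I heavy chain, was mostly ordered as a gradient. The lowest strain was NZW/LacJ, with 2.00, 2.66 and 2.87 FPKM, and its mean of 2.51 ± 0.453 was followed by A/J at 4.79 ± 0.314 and CBA/J at 4.99 ± 1.40 FPKM (SD, n = 3 each). NZW/LacJ lay below every mouse of A/J, and this was the only 1 of 24 neighbouring pairs that did not overlap. The highest inbred strains were C57L/J at 16.1 and KK/HlJ at 15.3 FPKM, beside C57BL/6J at 14.6 ± 1.54. All mice of 18 of the other 24 strains lay below C57BL/6J and those of 0 strains above it. For B2m the same counts were 16 below and 1 above (DBA/2J), and for H2-Eb1 10 below and 0 above. They were 5 below and 0 above for H2-Aa, 5 and 4 for H2-Ab1, and 5 and 5 for Cd74. Over all genes, 14.2% of pairs of a gene and an inbred strain lay wholly below C57BL/6J and 13.8% wholly above.

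The low ends of the class II side lay partly in the same strains. AKR/J and CE/J, low in H2-D1, and A/J, low in H2-K1 and B2m, recurred among them, whereas SWR/J, low in H2-Eb1, was second highest of the inbred strains in H2-D1. H2-Eb1 was lowest in SWR/J, with 0, 0.0981 and 0.165 FPKM. AXB-12/PgnJ (0.148, 1 mouse) and AKR/J (0.205 ± 0.0740, SD, n = 3) followed. BUB/BnJ, whose mean was above these, had 0.180, 0.237 and 0.252 FPKM. H2-Aa in the same SWR/J mice was 1.49, 2.57 and 2.60 FPKM, so that SWR/J was low in H2-Eb1 and not in H2-Aa. H2-Aa was lowest in AKR/J (0.442 ± 0.285 FPKM, SD, n = 3), SJL/J (0.530 ± 0.146, n = 2) and A/J (0.562 ± 0.199, n = 3). H2-Ab1 was lowest in AKR/J (0.296 ± 0.113), CE/J (0.306 ± 0.103) and BXA-8/PgnJ (0.336 ± 0.288). Cd74 was lowest in CE/J (1.59 ± 0.240), BXA-11/PgnJ (1.63 ± 0.330) and A/J (1.64 ± 0.797). Because levels near 0 lie close together on log2(FPKM + 1), differences of these genes are understated.

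DBA/2J, A/J, C3H/HeJ and BALB/cJ, as parents of the recombinant inbred sets or as the relative of one, were each compared with C57BL/6J. The comparisons share its 3 mice. In A/J, H2-K1 was 4.45, 4.85 and 5.07 FPKM, against 13.1, 14.5 and 16.2 FPKM in C57BL/6J. The groups did not overlap, and the log2 difference was -1.43 ± 0.30 (SE, limma adjusted p = 0.000152). B2m was 33.4, 35.9 and 38.9 FPKM in A/J and 66.5, 67.8 and 68.1 FPKM in C57BL/6J, again without overlap (-0.89 ± 0.23, adjusted p = 0.00361). H2-K1 and B2m were the 2 of 7 members called in A/J, both lower, where 8.01% of genes were called, 4.94% lower and 3.07% higher. H2-D1, at 14.5, 14.9 and 15.99 FPKM, was below all C57BL/6J mice but did not pass (-0.39 ± 0.23, adjusted p = 0.354). H2-Eb1, at 0.154, 0.357 and 0.371 FPKM against 1.06, 1.72 and 2.57 FPKM, did not pass either (-1.07 ± 0.39, adjusted p = 0.0659), although it did with a pseudocount of 0.1 or 0.01.

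In C3H/HeJ, H2-D1 was 3.00, 4.45 and 5.35 FPKM, far below the 19.4 to 20.6 FPKM of C57BL/6J. The log2 difference was -2.03 ± 0.23 (adjusted p = 7.84e-14), and the ratio of means 4.71. H2-K1 was 3.85, 4.63 and 8.18 FPKM, also without overlap (-1.30 ± 0.30, adjusted p = 0.000748). These were the 2 of 7 members called in C3H/HeJ, where 7.59% of genes were called, 3.71% lower and 3.89% higher. Some fits left out the mice of 1 replicate number, in strains with more than 1 mouse. These ended the call of H2-K1 in C3H/HeJ (limma adjusted p up to 0.177) and of B2m in A/J (up to 0.0972). They did not end those of H2-D1 in C3H/HeJ or of H2-K1 in A/J.

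In DBA/2J and BALB/cJ 0 of the 7 members passed limma's adjusted threshold, where 6.88% of all genes did in DBA/2J (3.58% lower, 3.3% higher) and 6.79% in BALB/cJ (3.93% lower, 2.86% higher). In DBA/2J 1 member and in BALB/cJ 2 members had an unadjusted p under 0.05. H2-D1 in DBA/2J was 27.6, 33.7 and 35.7 FPKM, above all C57BL/6J mice (0.65 ± 0.23, adjusted p = 0.0635, and 0.0106 to 0.378 over the alternatives). H2-K1 in BALB/cJ was 6.86, 7.63 and 9.16 FPKM, below all C57BL/6J mice (-0.82 ± 0.30, adjusted p = 0.0818, and 0.0115 to 0.471 over the alternatives). Both sat near the threshold. Leaving out OB-678 alone, which lowers the spread shared by all strains, brought the adjusted p to 0.0342 for H2-D1 in DBA/2J and to 0.0476 for H2-K1 in BALB/cJ.

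The recombinant inbred strains were placed by the midpoint between their parents on the log2 scale, for members called between those parents. In BXH, 1 of 6 strains, BXH-6/TyJ, lay on the C3H/HeJ side for H2-D1, and the same strain did so for H2-K1. Its 3 mice had 3.85, 4.08 and 4.57 FPKM of H2-D1 and 4.89, 5.42 and 6.24 FPKM of H2-K1, and the other 5 strains had H2-D1 means of 17.7 to 29.4 FPKM. B2m, on another chromosome, was 61.8, 64.6 and 69.8 FPKM in the same BXH-6/TyJ mice. In AXB/BXA, 2 of 18 strains lay on the A/J side for H2-K1 (AXB-15/PgnJ and BXA-4/PgnJ) and 2 for B2m (AXB-15/PgnJ and AXB-5/PgnJ). With the midpoint on FPKM, 5 of 18 lay on the A/J side for H2-K1 and 3 for B2m.

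The strains also differed in the assembled form to which the H2-K1 FPKM were assigned. Known transcripts of this gene differ at the start of exon 8, the last exon, which begins at position 33996503 of chromosome 17 in ENSMUST00000025181 and 27 bases further on, at 33996476, in ENSMUST00000172912. In GENCODE M21 both read to the same stop codon, at chr17:33996472-33996474, so the difference is 9 codons of the cytoplasmic tail. The sequences run from the first base of exon 7 to the stop codon (chr17:33996472-33996654, minus strand, GRCm38), and capitals mark the 27 bases present in the long form alone.
Long form, ENSMUST00000025181: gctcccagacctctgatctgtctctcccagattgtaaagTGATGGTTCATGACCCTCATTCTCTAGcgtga
Short form, ENSMUST00000172912: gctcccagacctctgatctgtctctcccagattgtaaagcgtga

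The 27 bases end in AG, the dinucleotide that closes introns, on the reference sequence. The share of the short form was computed from the FPKM of 2 assembled transcripts of each form, which held 79.4% of the H2-K1 level, in all but 1 of the 282 mice, those with at least 1 FPKM over the 4. This measure was chosen after its values had been seen and is given without a test. It was 1.05e-05%, 0.0196% and 9.65% in C57BL/6J. In A/J it was 98.3%, 100% and 100%, and in C3H/HeJ 79.9%, 100% and 100%. The long-form transcript of ENSMUST00000025181 averaged 11.4 FPKM in C57BL/6J, 0.0182 FPKM in A/J and 0.0356 FPKM in C3H/HeJ. DBA/2J and BALB/cJ were intermediate, with mean shares of 42.8% ± 31.3 and 39.5% ± 9.21 (SD, n = 3 each). The share varied widely within some strains, from 12.6% to 75.2% in DBA/2J and from 3.15% to 98.5% in NZB/BlNJ.

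Other classical inbred strains with mean shares above 88% were MA/MyJ and AKR/J (100% each), CBA/J (90.3%) and CE/J (88.5%). All of these were also among the 5 strains with the lowest H2-D1, with C3H/HeJ. A/J, with a share of 99.4%, had 15.1 FPKM of H2-D1. NZW/LacJ, the strain with the lowest H2-K1 level, had a mean share of 17.97% ± 31.1 (SD, n = 3), so a low level and a high share did not always go together.

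In the AXB/BXA set the strain means of the share fell into a low and a high range, with 10 strains from 0.190% to 37.4% and 8 strains from 92.1% to 100%, and 0 between. The 8 were AXB-2/PgnJ, AXB-5/PgnJ, AXB-8/PgnJ, AXB-12/PgnJ, AXB-15/PgnJ, BXA-4/PgnJ, BXA-8/PgnJ and BXA-12/PgnJ. By level, 2 of these lay on the A/J side of the log2 midpoint and 5 on that of the FPKM midpoint. H2-K1 means were 6.38 FPKM in BXA-4/PgnJ, 7.32 in AXB-15/PgnJ and 8.65 in BXA-12/PgnJ. They were 8.78 in AXB-5/PgnJ, 9.41 in BXA-8/PgnJ and 9.97 in AXB-12/PgnJ (1 mouse). The 10 strains of the low range had means of 13.5 to 18.9 FPKM. AXB-2/PgnJ and AXB-8/PgnJ had H2-K1 means of 14.98 and 14.84 FPKM, beside 14.61 in C57BL/6J, with shares of 99.9% and 99.1%. In the same mice Cd74 was 16.5 and 3.77 FPKM in AXB-2/PgnJ and 5.27 and 13.3 FPKM in AXB-8/PgnJ, against a median of 3.26 FPKM over all mice. In BXH the share was 83.04%, 100% and 100% in BXH-6/TyJ, and strain means were 1.48% to 23.9% in the other 5. CXBH, at 79.9%, was the highest CXB strain. In CXB-7/ByJ the share was 14.2% in OB-676, 26.8% in OB-677 and 100% in OB-678. BXD strain means ran from 3.86% to 67.8%. Strain means between 40% and 90% were found for 14 of 43 BXD, 2 of 7 CXB and 7 of 25 classical inbred strains. The low and high ranges of AXB/BXA were thus not seen in those sets. The 2 CXB strains were CXBH and CXB-7/ByJ, and the mean of 47.0% in CXB-7/ByJ rests on OB-678. Without OB-678, CXB-7/ByJ falls below 40% and CXBH remains.

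**Figure D3:**
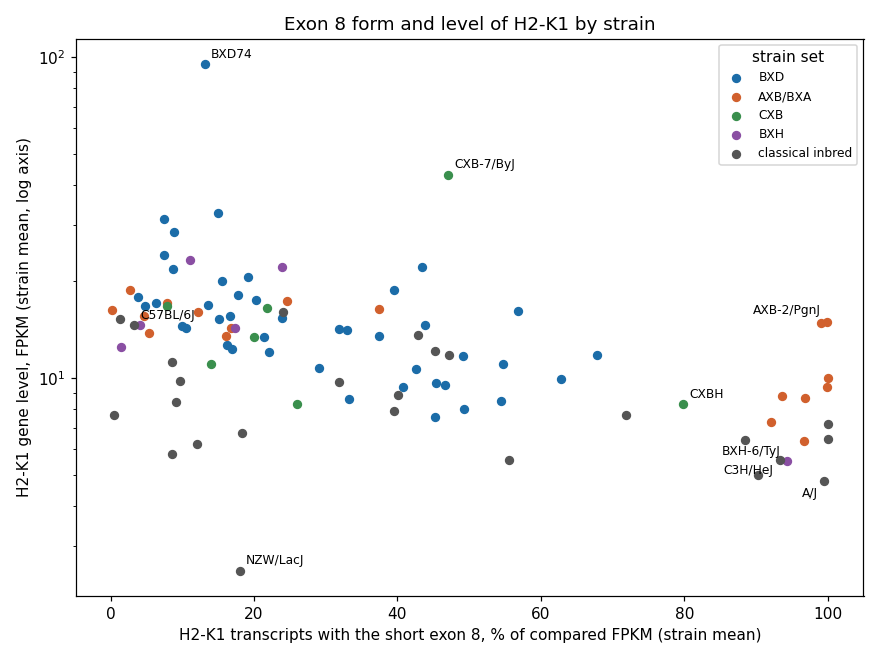
Strain means of the share of H2-K1 transcripts with the short exon 8 (percent of compared FPKM) against the H2-K1 gene level (FPKM, log axis), 1 point per strain, coloured by strain set. The 8 AXB/BXA strains at the right lie above 92%, and AXB-2/PgnJ is at 14.98 FPKM while A/J is at 4.79.

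The reads had been aligned to the C57BL/6J sequence with a fixed limit on mismatches, and H2 genes have close relatives to which reads can also align. Whether reads of other haplotypes were lost, or reads of related genes gained, was not tested. With these files a lower level and fewer aligned reads cannot be told apart for H2-K1 and H2-D1. Nor can a higher level and more aligned reads. The values that follow are listed without a conclusion. The median log2 difference over all genes, which is not a measure of the H2 region, was -0.02 for A/J and 0.01 for C3H/HeJ. B2m, outside the H2 region, was lower in A/J as well. H2-D1 was higher in BUB/BnJ (56.5 FPKM) and in SWR/J (35.8 FPKM) than in C57BL/6J (20.1 FPKM). For H2-K1, all mice of 18 of the other 24 inbred strains lay below C57BL/6J and those of 0 above. For H2-D1 these counts were 9 and 5, for H2-Eb1 10 and 0, for H2-Aa 5 and 0 and for H2-Ab1 5 and 4. Outside the H2 region they were 16 and 1 for B2m and 5 and 5 for Cd74. Each strain was compared with the same 3 mice of C57BL/6J. Over all genes, 14.2% of pairs of a gene and an inbred strain lay wholly below and 13.8% wholly above.

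Of the 21 transcripts, 20 were called for a strain effect by limma, where 46.8% of transcripts were. The H2-K1 transcript TCONS_00152805, the long form, had a strain share of 0.830 and a mean of 8.12 FPKM, and TCONS_00152802, the short form, 0.232 and 2.11 FPKM. H2-D1 was assembled as 11 transcripts, 9 of them unannotated isoforms. TCONS_00144719 was the main one, with a mean of 11.9 ± 7.61 FPKM (SD, n = 282) and a strain share of 0.760. It averaged 9.98 FPKM in C57BL/6J and 1.49 FPKM in C3H/HeJ. The next by mean, TCONS_00144711, had 1.40 FPKM, and TCONS_00144714 was the 1 transcript not called (adjusted p = 0.150). If boundaries that differ by 1 base are taken as the same, the 9 isoforms reduce to 3 structures, and 7 of them share 1. The deposited transcripts held 96.6% of the B2m level but 17.7% of the Cd74 level, 41.9% of H2-Ab1, 55.8% of H2-Eb1 and 56.9% of H2-Aa, so class II genes are described at the gene level.

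Single mice stood far above the rest. OB-1121, 1 of the 3 BXD74 mice, held the highest value of all 282 mice for each of the 7 genes. It had 207 FPKM of H2-K1, 177 of H2-D1 and 512 of B2m, and 140 of Cd74, 57.4 of H2-Aa, 41.3 of H2-Ab1 and 45.9 of H2-Eb1. These are 8.07 times the median mouse for B2m and 46.0 times for H2-Eb1. The other BXD74 mice, OB-1071 and OB-1120, had 36.4 and 41.8 FPKM of H2-K1, and 4.73 and 17.6 FPKM of Cd74. BXD74 thereby had the highest strain mean of all 7 members.

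In CXB-7/ByJ, a different profile was seen. OB-676 and OB-677 had 56.7 and 62.6 FPKM of H2-K1, 69.6 and 85.5 of H2-D1, and 237 and 248 of B2m. Their class II side was at 2.29 and 2.51 FPKM of Cd74, below the median of 3.26, and at 1.48 and 1.20 FPKM of H2-Aa, on either side of the median of 1.42. Class I was thus high without class II in these mice, whereas in OB-1121 both were high. The third mouse under this label, OB-678, is the library that went against it, with 9.95 FPKM of H2-K1, 20.2 of H2-D1, 58.5 of B2m and 3.91 of Cd74. The means of OB-676 and OB-677 alone were 59.7 ± 4.18 FPKM for H2-K1, 77.6 ± 11.2 for H2-D1 and 242 ± 8.13 for B2m (SD, n = 2).

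BXD-38/TyJ, BXD-39/TyJ and BXD60 gave further high values. All 3 BXD-39/TyJ mice were high in H2-K1, at 26.9, 33.4 and 37.9 FPKM, with Cd74 at 5.93, 8.27 and 8.39 FPKM. BXD-38/TyJ had the second highest strain mean of Cd74, H2-Aa, H2-Ab1 and H2-Eb1, and its Cd74 values of 8.01, 11.01 and 34.35 FPKM were led by OB-708. In BXD60, OB-1107 had 52.6 FPKM of H2-K1 and 16.6 of Cd74, and its strain mates 15.997 and 25.6 of H2-K1 and 3.03 and 4.99 of Cd74.

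**Figure D4:**
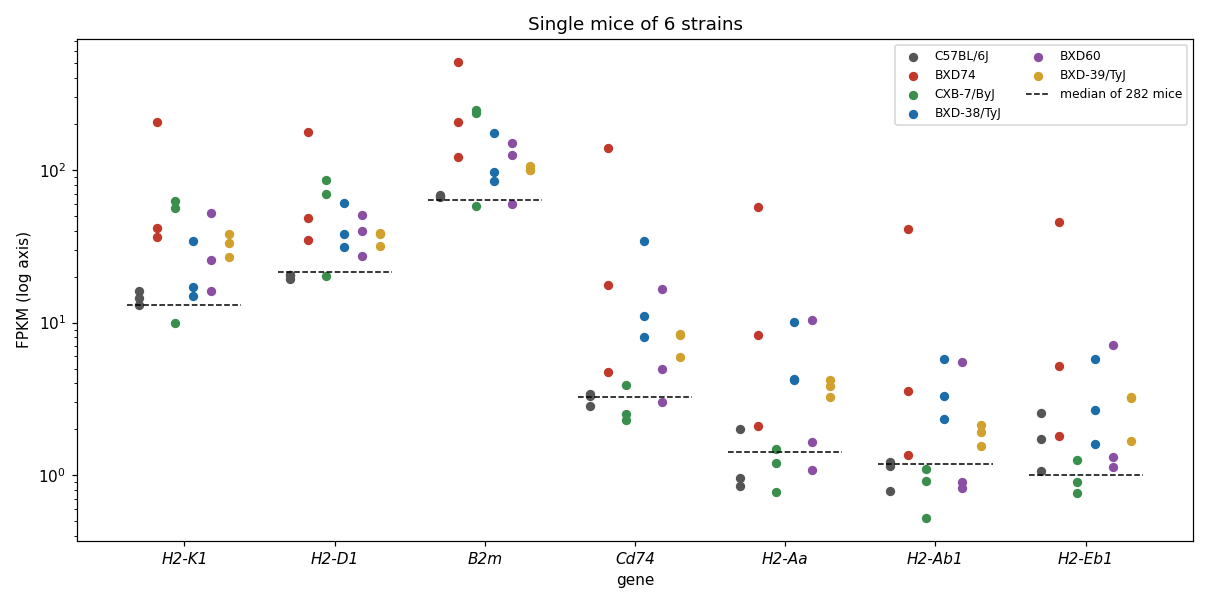
FPKM (log axis) of the 7 genes in single mice of C57BL/6J and of 5 recombinant inbred strains with high values, with the median of 282 mice as a dashed line. OB-1121 is the top BXD74 point for each gene, and 2 CXB-7/ByJ mice are high for H2-K1, H2-D1 and B2m alone.

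Sums of markers of other cells are given for the same mice. The sum of 10 of 10 microglia markers was 322.8 FPKM in OB-1121, 224.4 in OB-676, 258.2 in OB-677 and 174.7 in OB-678, against 63.5 to 508 in the whole panel with a median of 138. Only 1 mouse exceeded OB-1121, OB-547 with 508 FPKM, which also had the largest sum of gene FPKM. In OB-1121 9 of the 10 markers were above their medians, and P2ry12, a microglial receptor, was below (1.08 against 3.77 FPKM). OB-708, high in Cd74, had a microglia sum of 144.3 FPKM, which 115 mice exceeded, and an interferon response sum of 69.9 FPKM. The sum of 8 of 14 interferon response genes in the table was 322.1 FPKM in OB-1121, the highest of all mice, 80.2 in OB-676, 119.6 in OB-677 and 27.9 in OB-678, with a range of 14.9 to 322.1 and a median of 24.8. Among them Bst2, an interferon-induced membrane protein, was 51.2 FPKM in OB-1121 and 17.7 and 25.1 in the CXB-7/ByJ pair, against a median of 2.93, while Gbp2, an interferon-induced GTPase, was 31.7 FPKM in OB-1121 and 3.69 and 4.68 in the pair, against 2.31. The endothelial sum (5 of 7 markers) was 40.9, 36.8 and 41.3 FPKM in OB-1121, OB-676 and OB-677, close to its median of 36.8. The choroid plexus sum (5 of 6 markers) was 16.97 FPKM in OB-1121, 434 in OB-676, 32.6 in OB-677 and 206 in OB-678, with a median of 24.1. Of T cell markers 1 of 6 was in the table (Lck, 3.82, 1.09 and 1.58 FPKM, median 1.82), of dendritic and B cell markers 1 of 8, and of perivascular macrophage markers 0 of 7. The part of these cells in the MHC levels was not tested. The hypothalamus itself was marked by Pmch and Oxt, with medians of 477 and 301 FPKM.

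Within strains, the members rose and fell together. Deviations of each mouse from its strain mean on the log2 scale were correlated over 279 mice, and all 21 pairs passed with both Pearson's r and Spearman's rho (adjusted p = 1e-05 for each, the smallest that 100000 permutations within strains can give). Of the 99102081 pairs of all genes, 14% passed the same cut-off, set by permuting the member pairs (an absolute r of 0.30 and rho of 0.16), and 1.15% had both r and rho at least as high as the lowest of the 21 pairs. The 6 pairs among Cd74, H2-Aa, H2-Ab1 and H2-Eb1 had r of 0.78 to 0.82 and a median rho of 0.70. The 3 pairs among H2-K1, H2-D1 and B2m had r of 0.73 to 0.84 and a median rho of 0.58. The 12 pairs between both sides had r of 0.51 to 0.63 and a median rho of 0.51. When the 2 mice most distant from the median of 1 gene of a pair were left out, the lowest r was 0.47. Without OB-678 all 21 pairs passed with r of 0.54 to 0.83, and without OB-1121, OB-676 and OB-677 all 21 pairs still passed, with r of 0.44 to 0.79. H2-K1 and H2-D1 are similar in sequence and can share reads, and genes of 1 library share its depth.

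**Figure D5:**
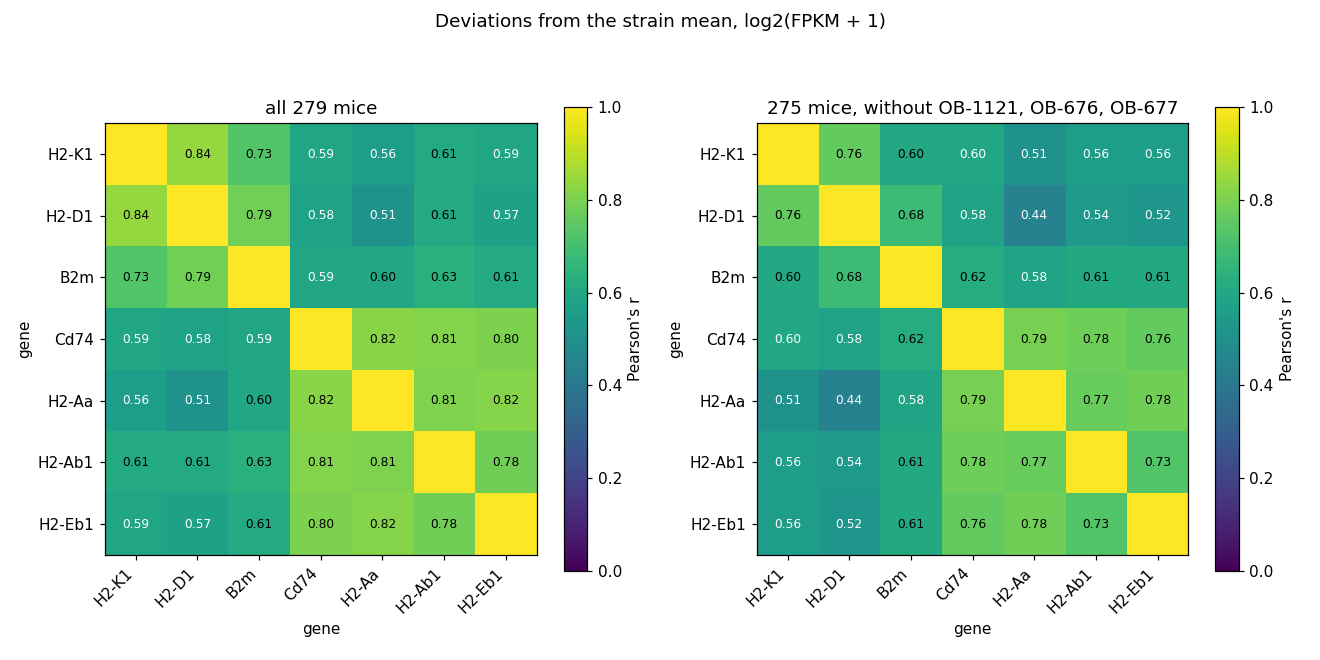
Pearson's r between the deviations of mice from their strain means, log2(FPKM + 1), for each pair of the 7 genes, over 279 mice (left) and over 275 mice without OB-1121, OB-676 and OB-677, which leaves OB-678 without a strain mate and out of the count (right). Pairs of class II genes with Cd74 are at 0.80 to 0.82 on the left, and pairs between class I and class II genes are lower.

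Across strain means the pattern depended on the set. Of the member pairs, 20 of 21 passed with both measures in BXD, where 7.26% of all pairs of genes passed the same cut-off, 12 of 15 in AXB/BXA (3.87% of all pairs), 3 of 21 in CXB (2.19%), 5 of 21 in BXH (1.6%) and 17 of 21 in the classical inbred strains (4.19%). The H2-K1 means of AXB/BXA fell into separate clusters, and its pairs in that set were left out. Class II pairs had a median r of 0.91 over the 43 BXD strains, 0.79 over the 18 AXB/BXA strains and 0.67 over the 25 classical inbred strains, and all 6 passed by permutation test in each. With the 2 most distant strains left out, these medians were 0.86, 0.69 and 0.55. In CXB, with 7 strains, 0 of the 6 class II pairs and all 3 class I pairs passed by permutation, 1 of the class I pairs did without OB-676, OB-677 and OB-1121, and without OB-678 all 3 class I pairs and 1 class II pair did. In the classical inbred strains the class I pairs had r of 0.41 to 0.66.

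Genes with the pattern most like each member were named by the largest r. The r over strain means pool all sets, and all 7 members were called for a set effect. H2-K1 means also fell into separate clusters in AXB/BXA. Such r can therefore include differences between sets or clusters, and need not show a graded pattern shared over strains. Over 99 strain means, Cd74 was nearest to H2-Aa (0.92), H2-Ab1 (0.87) and H2-Eb1 (0.81), and the 3 class II genes were each nearest to the other class II members. B2m was nearest to Irgm1 (0.77), an interferon-induced GTPase, to the unnamed locus XLOC_000197 (0.76) and to Oasl2 (0.72), an interferon-induced antiviral gene. H2-K1 was nearest to H2-Eb1 (0.71), to Rps18 (0.69), a ribosomal protein gene, and to H2-Q2 (0.69), another class I gene, all on chromosome 17. H2-D1 was nearest to the unnamed locus XLOC_016017 (0.64), H2-K1 (0.63) and H2-M3 (0.58). Over deviations within strains, H2-K1, H2-D1 and B2m were each nearest to one another. Next came Ifitm3, an interferon-induced membrane protein, for H2-K1 (0.65) and H2-D1 (0.72), and the locus of Igtp and Irgm2, interferon-induced GTPases, for B2m (0.70). Without OB-1121, OB-676 and OB-677, H2-Q2 (0.72) was nearest to H2-K1 over strain means, and Irgm1 (0.69) remained nearest to B2m. The protease gene Ctss (0.66) took the place of Oasl2 for B2m, and Akr1e1 (0.59) that of H2-M3 for H2-D1. Over deviations, Cd74 took the place of Ifitm3 for H2-K1 (0.60) and of H2-K1 for B2m (0.62).

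Of 60 other genes of antigen presentation listed, 33 were in the table, and 27 of these were called for a strain effect. This was 81.8% of those in the table, against 75.4% of all genes. The 9 other class I genes were all called, with a median strain share of 0.718, whereas 2 of 5 immunoproteasome genes were called, with a median of 0.0969. For peptide loading it was 6 of 7, for class II 4 of 4, and for regulators 6 of 8. The largest shares were those of H2-T22 (0.905), H2-Q2 (0.901), Ctss (0.792), a protease that trims the invariant chain, H2-T24 (0.752) and H2-Q4 (0.723). H2-Q2 was lower in C3H/HeJ, at 0.200 ± 0.263 FPKM against 6.21 ± 1.497 in C57BL/6J (SD, n = 3 each), a log2 difference of -2.59 ± 0.22 (SE, limma adjusted p = 4.57e-21). H2-T22 was 11.7 and 13.5 FPKM in OB-676 and OB-677 and 1.52 in OB-678. Of the 9 other class I genes, 4 were called lower in A/J (4.94% of all genes), 4 in BALB/cJ (3.93%) and 2 in C3H/HeJ (3.71%), with 0 higher in each, and in DBA/2J 3 were lower (3.58%) and 2 higher (3.3%). Psmb8, an immunoproteasome subunit, had 36.6 FPKM in OB-1121 and 5.40 and 6.32 FPKM in OB-676 and OB-677, with a median of 2.24.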

How the data were processed

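RNA from the hypothalamus of 282 male mice was sequenced in paired ends. Reads were mapped by the authors with STAR 2.3.1 to the mm10 build. They assembled transcripts by strain with Cufflinks 2.2.0, merged them with GENCODE annotation, and deposited FPKM values per mouse from Cuffnorm 2.2.1, together with the assembly, whose other deposited fields (exon positions) were used as given. Every gene in the table was above 0 in at least 100 mice and above 1 FPKM in at least 50. FPKM hold no counts, so depth per value is unknown here and precision is the spread between mice. All columns of values were mapped, and 0 were left out.

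Strains were taken from the labels. OB-627, whose labels name more than 1 strain, entered no comparison. OB-678 was kept under its label, and was also left out as an alternative. Values were tested as log2(FPKM + 1) with limma 3.58.1 in R 4.3.3, all strains in 1 fit with no covariate, with Benjamini-Hochberg adjustment over all features at 0.05. The strain test was tested on simulated data. Python 3.11.15 (numpy 2.4.6, pandas 2.3.3, scipy 1.17.1, matplotlib 3.10.9 for figures) gave correlations, midpoints, shares and sequence searches. Cut-offs for pairs of all genes came from 10000 permutations of the member pairs. Promoters came from RefSeq (GRCm38.p6) and transcripts from GENCODE M21. Named were all members found, the 3 highest and 3 lowest strains, the 3 most alike genes, the main transcripts and the 5 listed genes with the largest strain shares. Strains or mice outside that rule, and the exon 8 share, were chosen after their values had been seen. Members and lists were chosen with earlier results of these data known.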

Additional observations from a re-analysis of the deposited data

Results flagged for a closer look

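Strain means of the 7 genes were examined for 1 strain standing apart within the 6 BXH and the 7 CXB strains, 14 groups in all, with Dixon's ratio of the gap to the nearest strain over the whole range. By chance about 1 in 20 such groups would be picked. In CXB the mean of CXB-7/ByJ stood apart from the next strain for H2-K1 (43.1 against 16.8 FPKM), H2-D1 (58.5 against 26.05 FPKM) and B2m (181 against 89.2 FPKM), and each of these means rests on mice OB-676 and OB-677. Without OB-678, which went against its label, the CXB-7/ByJ means were 59.7, 77.6 and 242 FPKM. In BXH the mean of BXH-19/TyJ stood apart for Cd74 (10.8 against 4.65 FPKM) and H2-Aa (4.69 against 2.09 FPKM). Its 2 mice had 6.60 and 14.9 FPKM of Cd74.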

How the results depend on the processing

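No paired analysis was possible because the labels give no replicate numbers, and the numbers used were given in accession order. All 7 members kept their call for the overall strain effect and within BXD in every alternative run. Of 1022 values of single members under alternatives, 951 kept direction and side of the threshold, 37 gained a call, 27 lost one and 7 changed sign. Members called within AXB/BXA numbered 2, and 4 with a pseudocount of 0.1 or 0.01, 5 without OB-1121, OB-676 and OB-677, and 0 to 2 with 1 replicate left out. Within BXH they numbered 3, 6 without OB-1121 and 7 without the 3 mice, and 2 to 4 with 1 replicate left out. Leaving out 1 replicate gave 2 to 6 calls within the classical inbred strains (6 with all), 2 to 3 within CXB, 1 to 2 in A/J, 0 to 1 in BALB/cJ and 1 to 2 in C3H/HeJ. In DBA/2J 1 member, H2-D1, was called with quantile normalization, without OB-547, without OB-1121, without OB-676 and OB-677, without the 3 and without OB-678, and in BALB/cJ 1, H2-K1, without OB-676 and OB-677, without the 3 and without OB-678. In A/J 4 were called with a pseudocount of 0.01. The set effect was called in 2 members over recombinant inbred sets only. Of transcripts, 7 of 7 were called at a mean FPKM of at least 1, and 9 of 9 among known transcripts. The share of all transcripts called under the same filters is not given here, so these counts do not set the members apart. The FPKM midpoint put 5 AXB/BXA strains on the A/J side for H2-K1. The 7 changes of sign were in uncalled log2 differences with a replicate left out, which ranged from -0.29 to 0.17 for H2-K1 and from -0.0061 to 0.27 for H2-Aa in DBA/2J, and from -0.075 (-0.03 without replicate 1) to 0.37 for H2-Ab1, from -0.19 (-0.16 without replicate 2) to 0.47 for H2-Aa and from -0.18 to 0.30 for Cd74 in BALB/cJ. Over all genes, leaving out a replicate lowered the overall count from 10617 to as few as 6413, within BXD from 9080 to 4162, within AXB/BXA from 3163 to 1367, within CXB from 2531 to 1040, within BXH from 2613 to 898, within inbred strains from 6728 to 3835, and against C57BL/6J from 968 to 577 (DBA/2J) and 1069 to 578 (C3H/HeJ), with 661 and 699 genes in A/J without replicates 2 and 3 and fewer without replicate 1, and in BALB/cJ 510 of 956 without replicate 1 and fewer without replicate 2. Fewer mice enter those fits. Without OB-547 the CXB count was 4159, and the cause was not tested. With the inbred strains left out of the fit, the set effect was called in 2059 genes against 3695. The alternatives without OB-1121, OB-676, OB-677 or OB-678 were chosen after seeing the data. FPKM without counts set no limit of depth here.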

Other observations

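Mouse OB-627, whose labels name more than 1 strain, had 8.38 FPKM of H2-K1, 20.8 FPKM of H2-D1, 61.9 FPKM of B2m and 3.34 FPKM of Cd74, and its share of the short H2-K1 form was 100%. The largest sum of gene FPKM, 792801, was that of mouse OB-547 of BXD-12/TyJ, where the median mouse had 337467. OB-547 had 26.1 FPKM of H2-K1 and 7.97 FPKM of Cd74, and its strain mates 6.00 and 8.56 FPKM of H2-K1 and 2.60 and 3.36 FPKM of Cd74.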
